A study of Mus musculus with 13 samples.

Results

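The INK4 and CIP/KIP families hold the 7 mouse genes that encode the classical inhibitors of cyclin-dependent kinases (CDKs). They were chosen by symbol: Cdkn1a, Cdkn1b and Cdkn1c of the CIP/KIP family, and Cdkn2a, Cdkn2b, Cdkn2c and Cdkn2d of the INK4 family. They are 7 of the 57010 genes listed for each library. All 7 were among the 15034 genes that passed the filter on low counts, and the lowest count of any of them in any sample was 24 (Cdkn2c), so none passed only through the group in which it was high.

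RNA sequencing was carried out on primary wild-type (WT) mouse embryonic fibroblasts (MEFs), and the question was how senescence and Fucoidan-FV, the sulfated fucose-rich polysaccharide of Fucus vesiculosus (a brown seaweed), change their transcriptome. Each of 4 groups held cells labelled with mouse 4, 5 or 6 (n = 3). Control cells were untreated WT MEFs that had not become senescent. The senescent cells were WT MEFs exposed to 2 μM etoposide, a topoisomerase II poison that breaks DNA, for 24 h and kept in culture for 5 days. They were left untreated or received Fucoidan-FV at 100 or 300 μg/mL for 12 h (FV100 and FV300 below). No group carried a transgene or an engineered allele. No control cells received Fucoidan-FV, so its effect outside senescence cannot be read from these groups. MEFs are a mixed primary population, here from embryos without their viscera, lungs and heart, and the labels do not name the strain.

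The 13 libraries, a pair of them from control mouse 5, held 22782536 to 31278750 counts each. Fibroblast markers summed to 31935 to 53861 CPM over all samples. CPM are counts scaled to the size of the library, with the adjustment given in the processing section. Fn1, Vim and Col1a1 were high, and Lum was under 1 CPM in the control and untreated senescent groups. Dcn, Fap and Pdgfra were low in control cells, at means of 1.06, 2.8 and 11 CPM. Macrophage markers summed to at most 17.7 CPM, endothelial markers to at most 11.3, epithelial markers to at most 2.04 and erythroid markers to at most 0.0711 CPM. Of the skeletal muscle list, Acta1 and Des alone reached a mean of 1 CPM in any group, and the defining factor Myf5 was at 0 in every sample.

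CDKs drive the cell cycle when a cyclin binds them. INK4 proteins bind CDK4 and CDK6 alone and keep cyclin D away, whereas CIP/KIP proteins bind cyclin-CDK complexes, above all those of CDK2. Both routes leave the pocket proteins (RB1 and its relatives) bound to E2F factors, so that genes for DNA synthesis and mitosis are not transcribed. In senescent fibroblasts p21, the product of Cdkn1a, and p16Ink4a, a product of Cdkn2a, are the best known of these inhibitors.

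A pair of sequences shows how the loci are built, and both bear on what the counts can tell. The first is the p53 response element of Cdkn1a, through which DNA damage acts on this gene. The 120 bases before its upstream transcript start (GRCm39, chr17:29309833-29309952, plus strand) are shown with the 20-base element in capitals. The element lies 51 bases before that start and 2836 bases before the second start. The upstream start used, 29309953, is that of 1 chosen transcript. The annotated gene begins at 29309936, so the last bases shown lie inside it.
Cdkn1a upstream promoter: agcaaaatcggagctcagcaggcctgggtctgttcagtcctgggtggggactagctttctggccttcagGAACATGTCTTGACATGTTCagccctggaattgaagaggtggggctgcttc
The element differs from the p53 consensus, a repeated decamer with the core CNNG in each copy, at 1 base. A match with at most 1 such difference and both cores intact lay in 22 of 32851 promoter windows of RefSeq (GRCm38.p6, 250 bases before to 50 after each start), a share of 0.0670%. Of 9 windows for 6 members, 1 held it, that of the upstream start of Cdkn1a. Cdkn1c has no window in this table.

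The second is the join of the first exon to exon 2 of Cdkn2a, a gene that makes p16Ink4a from exon 1α (chromosome 4, 89200223 to 89200429, minus strand) and p19Arf from exon 1β (89212571 to 89212890), which lies 12.1 kb upstream. The last 30 coding bases of each first exon are in lower case, and the first 30 bases of the shared exon 2 (89194882 to 89195222) are in capitals.
Cdkn2a exon 1α to exon 2, p16Ink4a: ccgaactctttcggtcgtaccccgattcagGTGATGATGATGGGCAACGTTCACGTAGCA
Cdkn2a exon 1β to exon 2, p19Arf: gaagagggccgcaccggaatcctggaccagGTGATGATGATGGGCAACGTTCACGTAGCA
The coding part of exon 1α has 126 bases and ends with a whole codon, and that of exon 1β has 190 bases and leaves 1 base over. The bases of exon 2 that code in both transcripts are therefore read in different frames. Hence p19Arf, which acts on MDM2 and so on p53, shares no protein sequence with p16Ink4a. A read from exon 2 cannot be given to either transcript, and a count for the gene adds up both.

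Against control cells, senescent cells had 4 of the 7 inhibitors called as differentially expressed genes (DEGs), where 8.42% of all tested genes were called. A DEG had a Benjamini-Hochberg adjusted p under 0.05 in edgeR's quasi-likelihood test and an absolute log2 fold change over 1. Cdkn1a and Cdkn2a rose 3.53-fold and 5.49-fold, and Cdkn1b and Cdkn2c fell 2.69-fold and 5.07-fold. The median log2 fold change of the members was −0.18, beside 0.07 over all genes. The members thus moved in both directions within each family.

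Against untreated senescent cells, 1 of 7 members was a DEG with FV100 (2.69% of all genes) and 1 of 7 with FV300 (1.64% of all genes), and in both it was Cdkn1c, which encodes p57Kip2. Cdkn1c rose 2.52-fold with FV100 and 3.13-fold with FV300, and it was not a DEG in senescence. The doses share the same untreated senescent samples, so these are not independent comparisons. Between FV300 and FV100, 0 of 7 members were DEGs (0.00665% of all genes, or 1 gene), with adjusted p of 0.97 to 0.998 by edgeR. Of their unadjusted p values 0 were under 0.05 (0.141 to 0.993), and DESeq2 called 0 as well. Against control cells 5 of 7 were DEGs with FV100 (19.6% of all genes) and 4 of 7 with FV300 (18.0% of all genes).

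**Figure D1:**
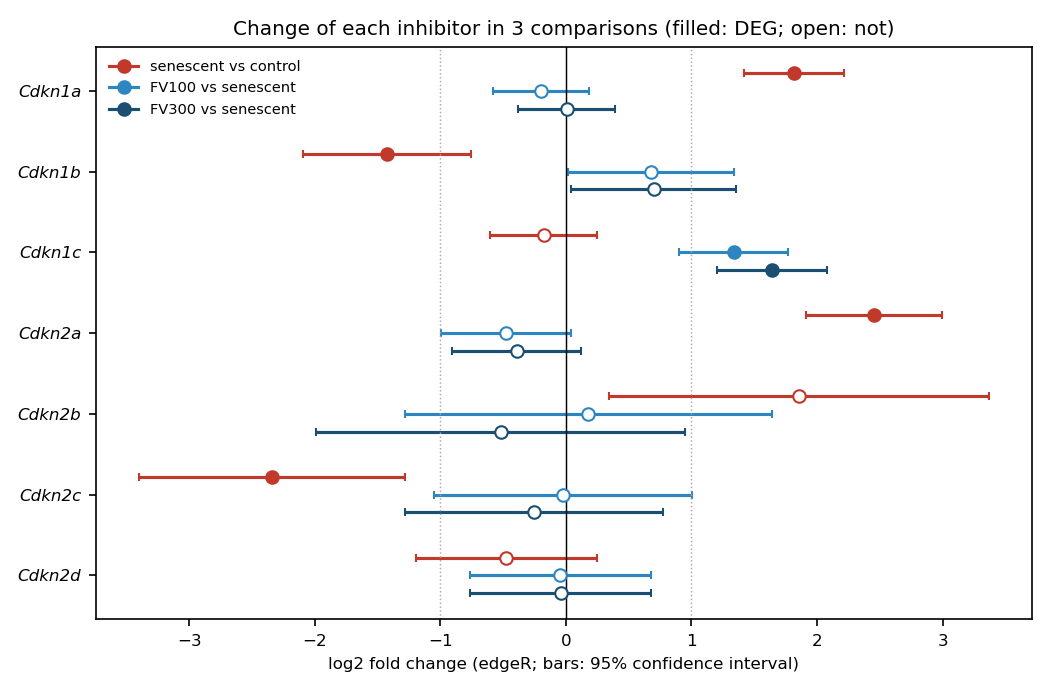
Log2 fold change of each inhibitor (x axis) with its 95% confidence interval in senescent against control cells and in FV100 and FV300 against untreated senescent cells, with DEGs as filled points. Cdkn1c is the only member whose filled points are those of Fucoidan-FV, at 1.34 and 1.64, and dotted lines mark a log2 fold change of 1 in either direction.

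Cdkn1a (ENSMUSG00000023067, chromosome 17, 29309936 to 29319701, plus strand) encodes p21, the main p53-induced inhibitor of CDK2. In control cells it was at 373, 504 and 527 CPM in mice 4, 5 and 6. It was at 1569, 1866 and 1519.9 CPM in untreated senescent cells. With FV100 it was at 1254, 1455 and 1613 CPM, and with FV300 at 1708, 1583 and 1688 CPM. The 9 senescent samples were all above the 3 control samples, and the 3 senescent groups overlapped. The log2 fold change against control was 1.82 in untreated senescent cells (SE 0.18, adjusted p = 6.79e-05, edgeR), 1.62 with FV100 (adjusted p = 4.76e-05) and 1.83 with FV300 (adjusted p = 2.45e-05). The log2 fold change against untreated senescent cells was −0.20 with FV100 (95% confidence interval −0.58 to 0.19) and 0.01 with FV300 (−0.38 to 0.39). A change of more than 1 on the log2 scale therefore lay outside both intervals.

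Cdkn1b (ENSMUSG00000003031, chromosome 6, 134897364 to 134902476, plus strand) encodes p27Kip1, an inhibitor typical of quiescent cells whose protein is removed through SKP2 when cells enter the cycle. It was at 36.7, 34.6 and 54.3 CPM in control mice 4, 5 and 6 and at 12.4, 20.9 and 13.5 CPM in untreated senescent cells, with no overlap. It fell by 1.43 on the log2 scale (SE 0.31, adjusted p = 0.00935, edgeR). With FV100 it was at 21.0, 22.0 and 31.7 CPM and with FV300 at 19.2, 22.7 and 34.1 CPM, between the other groups on average. FV100 lay just above the untreated senescent samples, and FV300 overlapped with them. Each Fucoidan-FV sample was higher than the untreated senescent sample of the same mouse. The log2 fold changes of 0.68 (95% confidence interval 0.02 to 1.34, adjusted p = 0.239) and 0.70 (0.04 to 1.36, adjusted p = 0.292) were not DEGs, and neither were those against control, −0.75 (adjusted p = 0.0863) and −0.73 (adjusted p = 0.102). The fall in senescence was called, but a return towards the control level was not shown.

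Cdkn1c (ENSMUSG00000037664, chromosome 7, 143012069 to 143014806, minus strand) encodes p57Kip2, an imprinted inhibitor expressed from the maternal allele and known from differentiating embryonic tissues. It was at 31.4, 44.1 and 40.3 CPM in control mice 4, 5 and 6 and at 30.5, 38.3 and 33.7 CPM in untreated senescent cells, which overlapped. It was at 82.7, 99.2 and 76.7 CPM with FV100. With FV300 it was at 121, 109.4 and 89.5 CPM. Every one of the 6 treated samples was above all 6 samples without Fucoidan-FV, by a margin larger than the range within any group. The log2 fold change against untreated senescent cells was 1.34 with FV100 (SE 0.20, 95% confidence interval 0.90 to 1.77, adjusted p = 0.00449, edgeR) and 1.64 with FV300 (SE 0.20, 1.21 to 2.08, adjusted p = 0.00175). Against control cells it was 1.16 with FV100 (adjusted p = 0.000997) and 1.47 with FV300 (adjusted p = 0.000217), and in untreated senescent cells it was −0.18 (−0.60 to 0.25, adjusted p = 0.65). The higher dose gave the higher value in each mouse, but the difference between doses, 0.31 (−0.12 to 0.74), had an adjusted p of 0.97.

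The calls of Cdkn1c held in each of the 18 alternative fits run for each comparison, with log2 fold changes of 1.22 to 1.58 for FV100 and 1.54 to 1.78 for FV300 against untreated senescent cells. An antisense gene, Gm44732, shares 625 of its 2065 exonic bases, but no more than 24.1 counts were given to it in any sample, where Cdkn1c had 739 counts or more. The 5 transcripts listed for Cdkn1c hold 6.54% of their bases in 1 transcript alone. In these bulk samples a change in the share of cells that express a gene and a change in RNA per cell cannot be told apart.

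Fibroblast markers moved with the same treatment. Against untreated senescent cells Col3a1 rose with FV100 and FV300 (log2 fold changes 1.38 and 1.17, adjusted p = 0.0164 and 0.0488, edgeR). Dcn and Lum were DEGs with FV100 (2.33 and 3.29, adjusted p = 0.0477 and 0.0399), but not with FV300 (2.22 and 2.73, adjusted p = 0.0822 and 0.0998). Vim was lower (−0.87 and −0.67, adjusted p = 0.0245 and 0.0958) and no DEG. Some marker lists of other cell types moved as well. The neural list summed to 582 to 1097 CPM in control cells and 641 to 1079 CPM in untreated senescent cells, but to 225 to 228 CPM with FV100 and 219 to 245 CPM with FV300, through the intermediate filament gene Nes, which fell (log2 fold changes −2.50 and −2.42, adjusted p = 0.000441 and 0.000952, edgeR). Other markers of the list went the other way: Map2 rose from 2.34 to 19.1 and 21.8 CPM (log2 fold changes 3.04 and 3.23, adjusted p = 0.00897 and 0.0102), and Tubb3 was at 34.9, 62.3 and 52.1 CPM, not a DEG. Of its 5 markers 3 reached a mean of 1 CPM in each group, the defining markers Sox2 and Gfap stayed under 1 CPM, and Gfap was at 0 in all untreated senescent samples. The endothelial list summed to at most 2.46 CPM without Fucoidan-FV, with 0 of 5 markers at a mean of 1 CPM, and to 3.86 to 11.3 CPM with it, where 1 of 5, Tek, reached it and Pecam1 and Cdh5 did not. The skeletal muscle list summed to 149 to 359 CPM in untreated senescent cells, to 91.7 to 148 CPM with FV100 and to 67.8 to 119 CPM with FV300, through Acta1 and Des, neither of which was a DEG by edgeR. The part of these marker changes in the result for Cdkn1c was not tested.

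**Figure D2:**
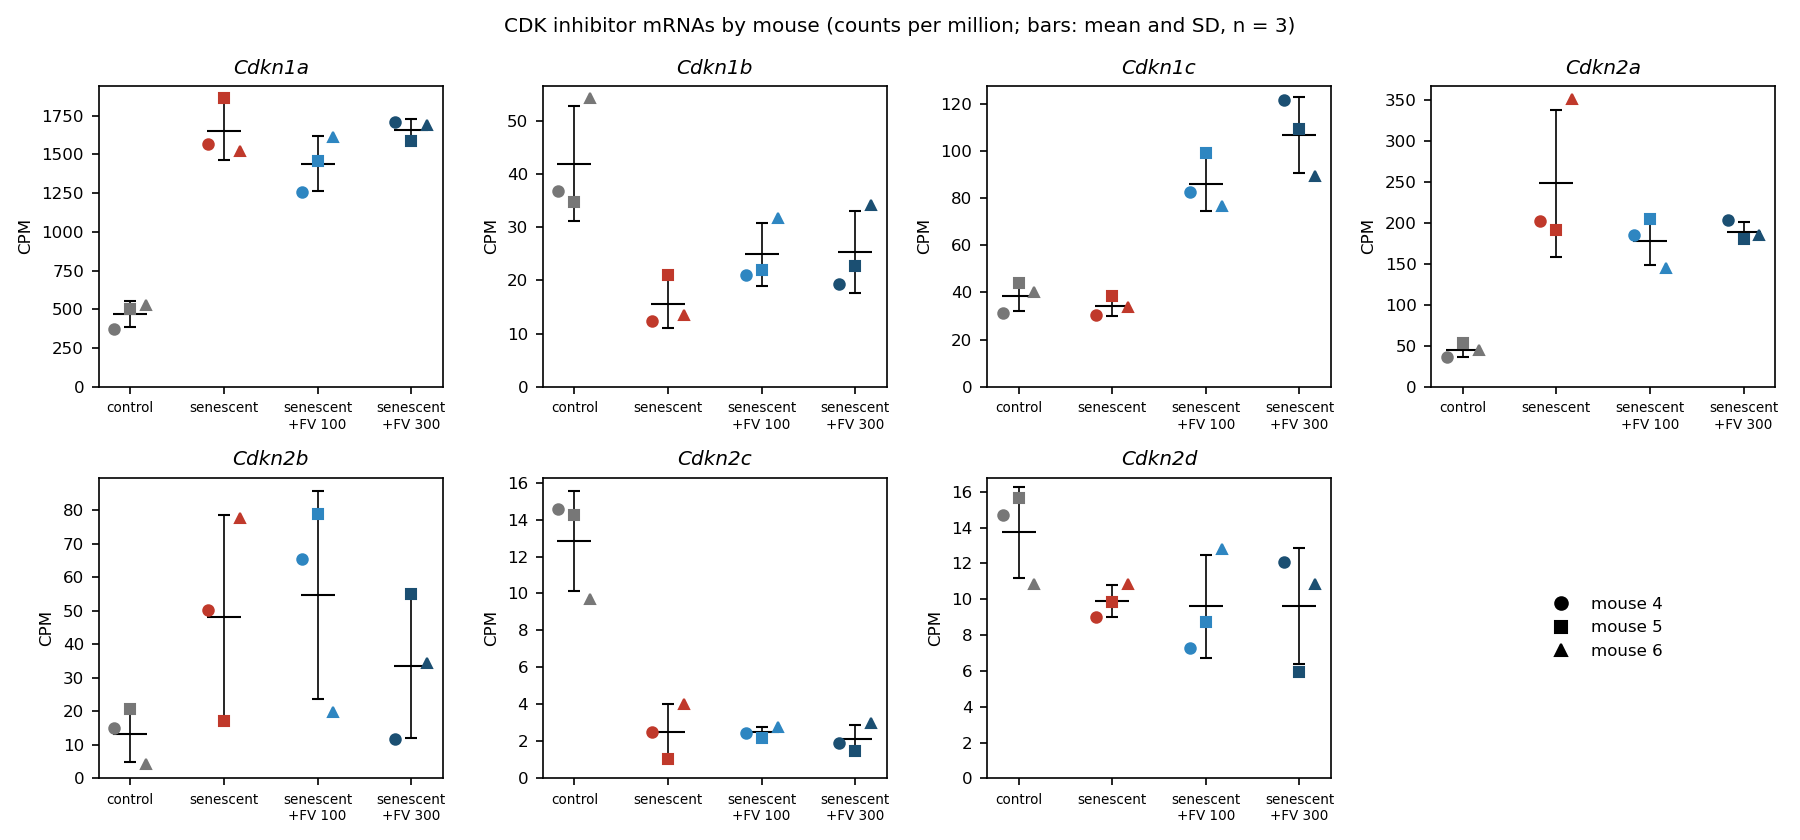
CPM (y axis, 1 scale per gene, starting at 0) of each inhibitor by group, with 1 point for each of mice 4, 5 and 6 and the mean with SD (n = 3). The 6 Fucoidan-FV points of Cdkn1c, at 76.7 to 121 CPM, lie above the 6 others, and the points of Cdkn2b are spread widely in every group.

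Cdkn2a (ENSMUSG00000044303, chromosome 4, 89192708 to 89212890, minus strand) makes both p16Ink4a and p19Arf, as the joins above show. It was at 36.9, 53.7 and 45.1 CPM in control mice 4, 5 and 6 and at 203, 191 and 351 CPM in untreated senescent cells. It was at 185, 205 and 145 CPM with FV100 and at 203, 180 and 185 CPM with FV300. The control samples were below all others, and senescent mouse 6 stood above every other sample. In senescence it rose by 2.46 on the log2 scale (SE 0.25, adjusted p = 7.24e-05, edgeR). Those against untreated senescent cells were −0.48 with FV100 (95% confidence interval −0.99 to 0.04, adjusted p = 0.292) and −0.39 with FV300 (−0.90 to 0.12, adjusted p = 0.49). They turned on that mouse: without senescent mouse 6 the value for FV100 was 0.02 (adjusted p = 0.967). Values of Cdkn2a also differed between libraries of the same mouse, at 31.9 CPM in library 5(1) and 77.4 CPM in library 5(2) of control mouse 5.

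The mean transcript length deposited for Cdkn2a tells how its estimated transcript abundance, rather than its counts, was divided. This is because the p16Ink4a transcript has 852 bases and that of p19Arf 895. By this measure p19Arf made up 44.3, 44.01 and 43.3% in control mice 4, 5 and 6 and 46.3, 47.0 and 44.1% in untreated senescent cells. It made up 39.3, 37.9 and 45.3% with FV100 and 44.9, 41.2 and 44.7% with FV300. No group stood apart. The differences were 1.93 percentage points for senescent against control (two-sided exact permutation test, p = 0.2), −4.98 for FV100 (p = 0.2) and −2.22 for FV300 (p = 0.3) against untreated senescent cells, where 0.1 is the smallest p that 3 against 3 samples allow. The libraries 5(1) and 5(2) of control mouse 5 gave 47.4% and 40.6%, which are farther apart than any of these group means. At this precision a shift between the transcripts was not detectable. Both shares are estimates that rest on the reads of the first exons, and the transcript lengths come from GENCODE M39, in which 86.8% of 35263 genes with 1 transcript had the length given in the files.

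Cdkn2b (ENSMUSG00000073802, chromosome 4, 89223204 to 89229276, minus strand) encodes p15Ink4b, an inhibitor known as a target of TGF-β, and lies 10.3 kb from Cdkn2a. It was at 14.9, 20.6 and 4.28 CPM in control mice 4, 5 and 6 and at 50.1, 17.1 and 77.5 CPM in untreated senescent cells. It was at 65.3, 78.9 and 19.8 CPM with FV100 and at 11.7, 54.9 and 34.3 CPM with FV300. Every pair of groups overlapped, and the SD was 56.7 to 64.1% of the mean in all 4 groups. The log2 fold change against control was 1.86 in untreated senescent cells (SE 0.70, adjusted p = 0.112, edgeR), 2.04 with FV100 (SE 0.71, adjusted p = 0.0481), which was a DEG, and 1.34 with FV300 (SE 0.69, adjusted p = 0.186). With the mouse number as a block, FV100 against control was no longer a DEG (log2 fold change 2.06, adjusted p = 0.0665). Without control mouse 4, 5 or 6, or without mouse 4 or 5 of FV100, it was no DEG either (adjusted p = 0.0558 to 0.151).

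The spread of Cdkn2b was set beside a property of the libraries, and its cause was not tested. For control mouse 5, library 5(1) gave 101 counts (3.55 CPM) and library 5(2) 950 counts (40.2 CPM), a difference of 3.33 in log2(CPM + 0.5) within 1 mouse. Cdkn2b has 1 listed transcript, and over the 2067 tested genes with 1 listed transcript the median difference between these libraries was 0.91, beside −0.03 over the 12967 genes with more. The other members differed by −0.47 to 1.27 between the libraries, the highest being Cdkn2a. In 3 of the 4 groups, all but control, the mice had the same order in Cdkn2b as in the median of the genes with 1 listed transcript. With library 5(1) alone for that mouse Cdkn2b was a DEG in senescence (log2 fold change 2.67, adjusted p = 0.0306), and with library 5(2) alone it was not (1.28, adjusted p = 0.356).

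A further fit, chosen after seeing the data, took out of each sample the median deviation of genes with a like share of bases in 1 transcript. In it Cdkn2b was a DEG in all 3 senescent groups against control, with log2 fold changes of 1.62 (adjusted p = 0.00444), 1.26 for FV100 (adjusted p = 0.00918) and 1.17 for FV300 (adjusted p = 0.0139). It stayed without a call against untreated senescent cells, and over all 18 alternatives its log2 fold change in senescence ranged from 1.28 to 2.67, with adjusted p of 9.55e-05 to 0.356.

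**Figure D3:**
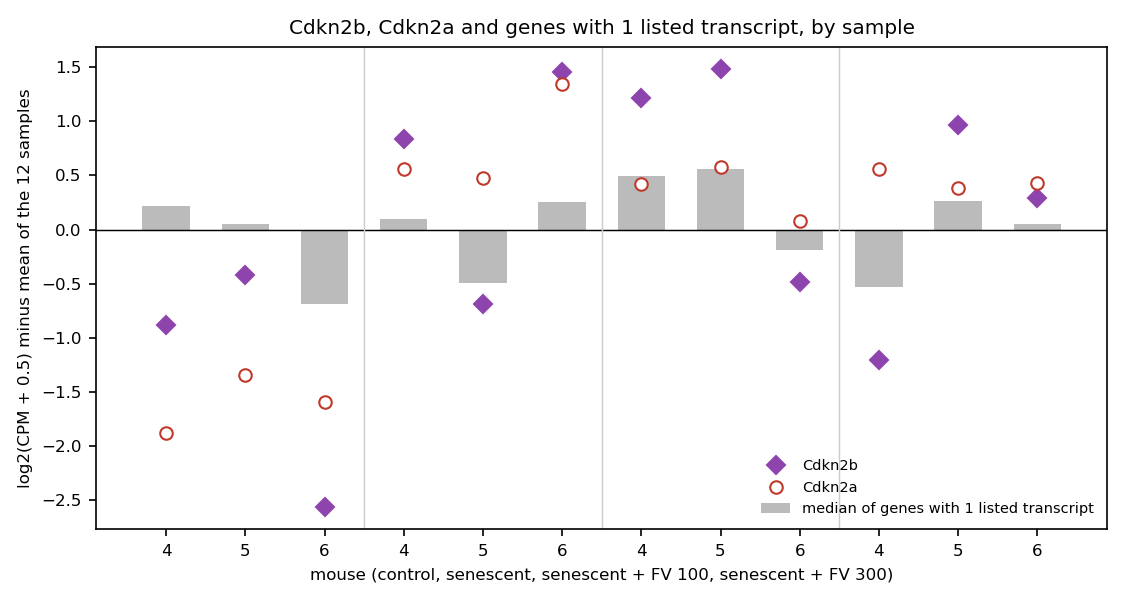
Deviation of log2(CPM + 0.5) from the mean of the 12 samples (y axis) by group and mouse (x axis), for Cdkn2b, Cdkn2a and the median of 2067 genes with 1 listed transcript. Cdkn2b was lowest in control mouse 6, at −2.57, where the bar is also lowest, at −0.69.

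Cdkn2c (ENSMUSG00000028551, chromosome 4, 109517957 to 109524386, minus strand) encodes p18Ink4c, an INK4 inhibitor known from cells that leave the cycle in development. It was at 14.6, 14.2 and 9.73 CPM in control mice 4, 5 and 6, and at 2.52, 1.03 and 4.01 CPM in untreated senescent cells. With FV100 it was at 2.47, 2.20 and 2.80 CPM, and with FV300 at 1.90, 1.49 and 2.99 CPM. The 9 senescent samples were all below the lowest control sample, and the 3 senescent groups overlapped. It fell by 2.34 on the log2 scale in senescence (SE 0.49, adjusted p = 0.00756, edgeR), by 2.37 with FV100 (adjusted p = 0.00327) and by 2.59 with FV300 (adjusted p = 0.00213) against control. Its log2 fold changes against untreated senescent cells were −0.02 (95% confidence interval −1.05 to 1.00) and −0.25 (−1.28 to 0.78), intervals that reach past a 2-fold fall or, for FV100, a 2-fold rise, so a change of that size could not be told at 24 to 118 counts per senescent sample.

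Cdkn2d (ENSMUSG00000096472, chromosome 9, 21199700 to 21202727, minus strand) encodes p19Ink4d. It was at 14.7, 15.7 and 10.9 CPM in control mice 4, 5 and 6, at 9.01, 9.87 and 10.8 CPM in untreated senescent cells, at 7.29, 8.71 and 12.8 CPM with FV100 and at 12.1, 5.94 and 10.9 CPM with FV300. The senescent samples lay just below the lowest control sample, and all other pairs of groups overlapped. It was not a DEG in any of the 6 comparisons. Its log2 fold change in senescence was −0.47 (95% confidence interval −1.19 to 0.25, adjusted p = 0.424, edgeR), and with FV100 and FV300 against untreated senescent cells it was −0.04 in both (−0.76 to 0.67 and −0.76 to 0.68).

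Levels of different genes were compared in TPM, the scale on which counts are also divided by transcript length. In control cells the order of mean TPM was Cdkn1a at 349, Cdkn2a at 95.3, Cdkn1c at 50.5, Cdkn1b at 24.8, Cdkn2d at 17.6, Cdkn2b at 15.6 and Cdkn2c at 12.2. The ranges over mice of Cdkn2b and of Cdkn2d and Cdkn2c, its neighbours in this order, overlapped. In untreated senescent cells it was Cdkn1a at 1290, Cdkn2a at 516, Cdkn2b at 53.4, Cdkn1c at 39.2, Cdkn2d at 12.9, Cdkn1b at 9.56 and Cdkn2c at 2.63, with overlap between Cdkn2b and Cdkn1c and between Cdkn2d and Cdkn1b. With FV100 and FV300 Cdkn1c, at 137 and 160 TPM, was the third in the order, before Cdkn2b at 88.9 and 49.5 TPM, with ranges that overlapped for FV100 and did not for FV300. The files give Cdkn2b a length of 1390 bases, where its transcript has 2722 in GENCODE M39, so its TPM and its place in each order rest on that length.

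The summed TPM of the 7 genes was 565 ± 68.0 in control cells and 1923 ± 161 in untreated senescent cells (SD, n = 3). It was 2343 ± 333 with FV100 and 2358 ± 171 with FV300. Cdkn1a and Cdkn2a made up most of it in every group. The share of Cdkn1a was 61.7 ± 2.29% in control cells and 66.6 ± 9.35% in untreated senescent cells, and the ranges overlapped. That of Cdkn1c was 8.96 ± 0.753% in control cells, 2.03 ± 0.612% in untreated senescent cells, 5.79 ± 0.463% with FV100 and 6.77 ± 0.691% with FV300. The shares of Cdkn1b and Cdkn2c in untreated senescent cells were 0.494 ± 0.141% and 0.139 ± 0.0689%, against 4.42 ± 1.10% and 2.19 ± 0.535% in control cells. On this scale Cdkn1a was higher with FV100 than in untreated senescent cells, at 1543 and 1290 TPM. In CPM it was lower, at 1440 and 1652. Cdkn2a was at 536 and 516 TPM, but at 178 and 248 CPM. The signs of these differences rest on the scale. With FV300 Cdkn1a was at 1607 TPM, but at 1660 CPM, close to untreated senescent cells. As both genes make up most of the sum, its higher value with Fucoidan-FV rests on the scale as well.

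**Figure D4:**
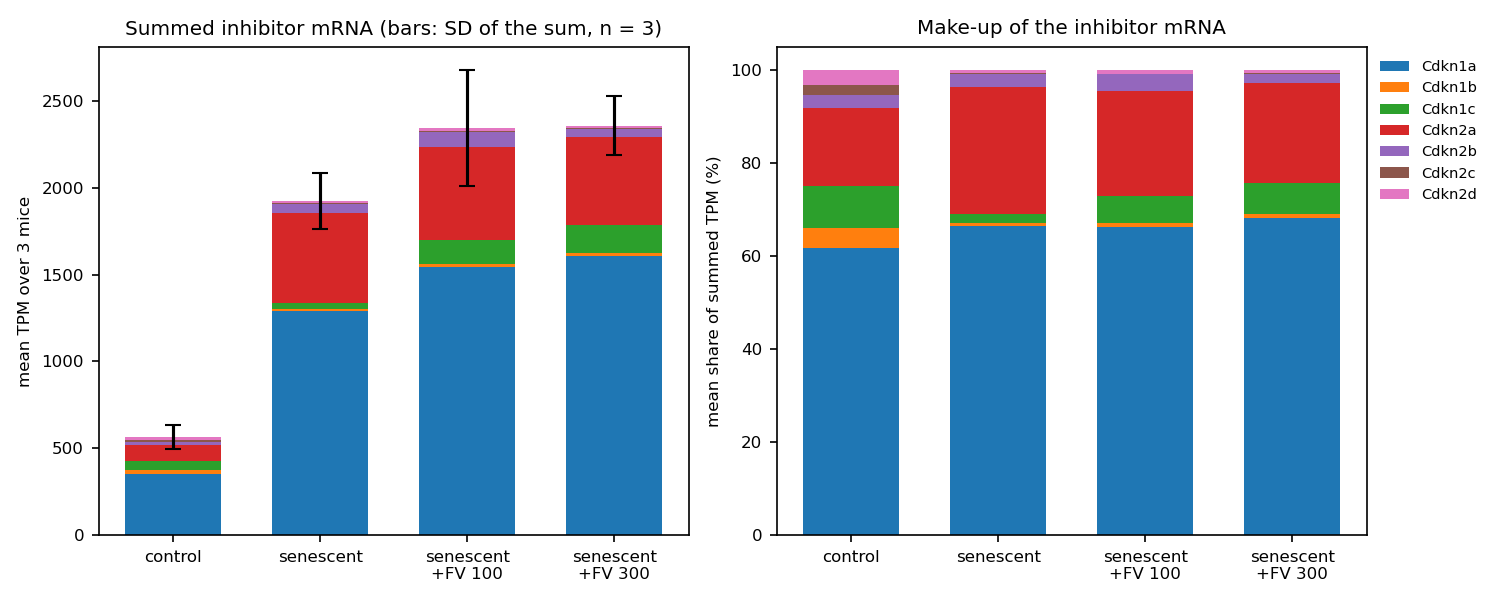
Mean TPM of the 7 inhibitors stacked by group (left, with the SD of the sum, n = 3) and their mean share of the summed TPM (right, in percent). The sum is 565 TPM in control cells and 1923 to 2358 TPM in the senescent groups, and the share of Cdkn1c is 2.03% in untreated senescent cells and 5.79 to 6.77% with Fucoidan-FV.

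Of 12 tested genes for the cyclins and CDKs that the inhibitors hold, 0 rose and 7 fell against control (median log2 fold change −1.94, beside 0.07 over all genes, of which 8.42% were DEGs). Those that fell were Ccne1, Ccne2, Ccna2, Ccnb1, Ccnb2, Cdk1 and Cdk2, for the cyclins and kinases of the S phase and mitosis. Ccnb1 was at 157 ± 10.98 CPM in control and 7.98 ± 2.72 CPM in senescent cells (log2 fold change −4.29, SE 0.64, adjusted p = 0.00087, edgeR), and Ccna2 was at 110 ± 10.7 and 5.70 ± 2.30 CPM (−4.26, adjusted p = 0.000204). Cdk1 was at 161 ± 10.01 and 14.8 ± 5.72 CPM (−3.44, adjusted p = 6.45e-05), and Cdk2, which p21 holds, had a log2 fold change of −1.63 (adjusted p = 0.000746). The partners of the INK4 proteins were not DEGs in senescence: the log2 fold changes were −0.46 for Cdk4, 0.30 for Cdk6 and 0.99 for Ccnd1 (adjusted p = 0.225, 0.617 and 0.0809). Against untreated senescent cells 0 of the 12 were DEGs with FV100 or FV300 by edgeR or DESeq2, with 4 and 2 at an unadjusted p under 0.05 (medians −0.40 and −0.38, beside −0.02 and 0.00 over all genes).

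Among pocket protein and E2F genes, 12 of 13 were tested. Where 8.42% of all genes were called, 4 of the 12 fell in senescence and 0 rose (median −0.39). These were E2f7 (log2 fold change −5.01, adjusted p = 0.000204) and E2f8 (−3.80, adjusted p = 0.0115), both repressors and themselves E2F targets, Rbl1 (−2.27, adjusted p = 0.00507), which encodes p107, and Tfdp1 (−1.39, adjusted p = 0.00266), the partner of E2F proteins. Rb1 had a log2 fold change of 1.17 in senescence (adjusted p = 0.15) and rose with FV100 (2.26, adjusted p = 0.00473) and FV300 (1.75, adjusted p = 0.0195) against control. Against untreated senescent cells 0 of 12 were DEGs with either dose by edgeR or DESeq2, with 2 at an unadjusted p under 0.05 for each.

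Upstream of Cdkn1a, 1 of 11 tested p53 pathway genes rose and 1 fell in senescence, where 8.42% of all genes were called. Their median log2 fold change was −0.52, beside 0.07 over all genes. Against untreated senescent cells 0 of the 11 were DEGs with FV100 or FV300 by edgeR or DESeq2. Mdm2, a p53 target that limits p53, was at 125, 143 and 230.3 CPM in control mice 4, 5 and 6 and at 510.2, 590.3 and 342 CPM in senescent cells (log2 fold change 1.53, adjusted p = 0.00174, edgeR). Chek1, a checkpoint kinase gene expressed in cycling cells, fell by 2.81 (adjusted p = 0.00331). Trp53 itself had a log2 fold change of −0.77 (adjusted p = 0.0111, edgeR), short of the size set for a DEG. Against control it was a DEG with FV100 (−1.16, adjusted p = 0.000356) and with FV300 (−1.01, adjusted p = 0.000977). In senescence 9 of 28 other p53 target genes rose and 1 fell (median 0.41), a share of 10 of 28 where 8.42% of all genes were called. Fas, a death receptor gene, was at 4.30 ± 0.592 CPM in control and 49.8 ± 5.97 CPM in senescent cells (log2 fold change 3.53, adjusted p = 7.58e-06). Perp was at 0.0752 ± 0.0668 and 4.99 ± 2.82 CPM, and Trp53inp1 had a log2 fold change of 1.94 (adjusted p = 0.0121) and Pmaip1 one of 1.78 (adjusted p = 0.0115). With Fucoidan-FV 1 of the 28, Plk3, a stress-induced kinase gene, fell with FV100 (log2 fold change −1.30, adjusted p = 0.01) and with FV300 (−1.15, adjusted p = 0.0264) against untreated senescent cells by edgeR, and 0 rose. Such a share is near the 2.69% and 1.64% of all genes called, and DESeq2 called 1 and 2 of the 28.

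Of 19 tested regulators of the INK4 locus, 1 fell in senescence and 0 rose (median −0.17), a share no higher than the 8.42% of all genes. It was Ezh2, the methyltransferase of Polycomb complex PRC2 that keeps Cdkn2a silent in young cells, at 77.4 ± 13.7 CPM in control and 17.8 ± 4.18 CPM in senescent cells (log2 fold change −2.12, SE 0.27, adjusted p = 0.000333, edgeR). Bmi1, of Polycomb complex PRC1, had a log2 fold change of 0.28 (adjusted p = 0.539). With FV100, 1 of 19 fell against untreated senescent cells, where 2.69% of all genes were called. This gene, Id1, whose product holds back activators of p16Ink4a, was at 50.5, 47.0 and 93.0 CPM in untreated senescent mice 4, 5 and 6. With FV100 it was at 11.8, 10.5 and 2.08 CPM (log2 fold change −2.97, SE 0.62, adjusted p = 0.0198, edgeR). With FV300 Id1 was at 18.5, 11.8 and 3.57 CPM (−2.49, adjusted p = 0.0562), not a DEG by edgeR, but DESeq2 called it (−2.47, adjusted p = 0.00155).

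Among 14 tested transcription factors that act on CIP/KIP genes or Cdkn2b, 0 were DEGs in senescence by edgeR or DESeq2 (3 at an unadjusted p under 0.05). Of all genes 8.42% were called in senescence, and 2.69% and 1.64% with FV100 and FV300 against untreated senescent cells. Against those cells 1 of the 14 fell with each dose by edgeR, where DESeq2 called 1 with FV100 and 0 with FV300. It was Myc, known to repress Cdkn1a and Cdkn2b, which was at 57.1, 68.7 and 75.7 CPM in untreated senescent mice 4, 5 and 6. It was at 27.9, 27.9 and 30.5 CPM with FV100 and at 37.9, 29.7 and 31.8 CPM with FV300, with no overlap. Its log2 fold changes were −1.22 (SE 0.20, adjusted p = 0.00764, edgeR) and −1.02 (SE 0.20, adjusted p = 0.0243). Cdkn1a and Cdkn2b were not DEGs in these comparisons. Foxo3, known to act on Cdkn1b, was a DEG against control with FV100 (1.71, adjusted p = 0.000829) and FV300 (1.57, adjusted p = 0.00157), and had log2 fold changes of 0.87 and 0.72 against untreated senescent cells (adjusted p = 0.104 and 0.23).

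Where 8.42% of all tested genes were called, 4 of 13 genes for the turnover of CIP/KIP proteins fell in senescence and 0 rose (median −0.23). They were Dtl (log2 fold change −3.91, adjusted p = 3.42e-05, edgeR), which brings p21 to CUL4, Cdc20 (−3.19, adjusted p = 0.00138), an activator of the anaphase-promoting complex, and Skp2 (−2.60, adjusted p = 7.66e-05) and Cks1b (−1.44, adjusted p = 0.00898), which bring p27Kip1 and p57Kip2 to the ubiquitin ligase SCF. With either dose 0 were DEGs against untreated senescent cells by edgeR or DESeq2, with 1 at an unadjusted p under 0.05 for each. Protein levels were not measured, so mRNA levels of Cdkn1b and Cdkn1c need not follow those of their proteins. Of the 3 genes of other families with CDK inhibitor names, Cdkn3, a phosphatase gene of cycling cells, fell in senescence, from 4.97 ± 0.161 to 0.267 ± 0.194 CPM (adjusted p = 0.0362).

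Cdkn1c lies in an imprinted region of chromosome 7, of which 9 of 13 listed genes were tested. Against untreated senescent cells 5 of the 9 had a higher value and 4 a lower one with FV100, and 6 and 3 with FV300. Medians were 0.19 and 0.87, beside −0.02 and 0.00 over all genes. Where 2.69% and 1.64% of all genes were called, 1 of the 9 was a DEG with each dose by edgeR, and it rose. It was H19, a maternally expressed long noncoding RNA, at 179.5, 116 and 122 CPM in untreated senescent mice 4, 5 and 6, at 1087, 548 and 2747 CPM with FV100 and at 1541, 623 and 2353 CPM with FV300. Its log2 fold changes were 3.39 (SE 0.56, adjusted p = 0.00719, edgeR) and 3.44 (SE 0.56, adjusted p = 0.00965). Every treated sample was above every untreated one, although the mice differed widely within each dose. Igf2, its paternally expressed neighbour, was at 58.9, 43.2 and 17.8 CPM in untreated senescent cells and higher in each mouse with either dose, but was no DEG by edgeR (1.32 and 1.57, adjusted p = 0.176 and 0.154). DESeq2 called it with FV300 (1.58, adjusted p = 0.0418) and not with FV100. Slc22a18, the nearest tested coding gene to Cdkn1c on one side at 12.7 kb, behaved differently: it was at 0.17, 0.0589 and 0 CPM in control mice 4, 5 and 6 and at 3.07, 1.90 and 4.49 CPM in senescent cells, where it was a DEG (adjusted p = 0.000589), and was none with FV100 or FV300 against those (0.19 and 0.87, adjusted p = 0.899 and 0.531). Tssc4, the nearest on the other side at 387.2 kb, did not rise against untreated senescent cells. Its log2 fold changes were −0.49 with FV100 and −0.41 with FV300 (adjusted p = 0.341 and 0.523, edgeR).

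**Figure D5:**
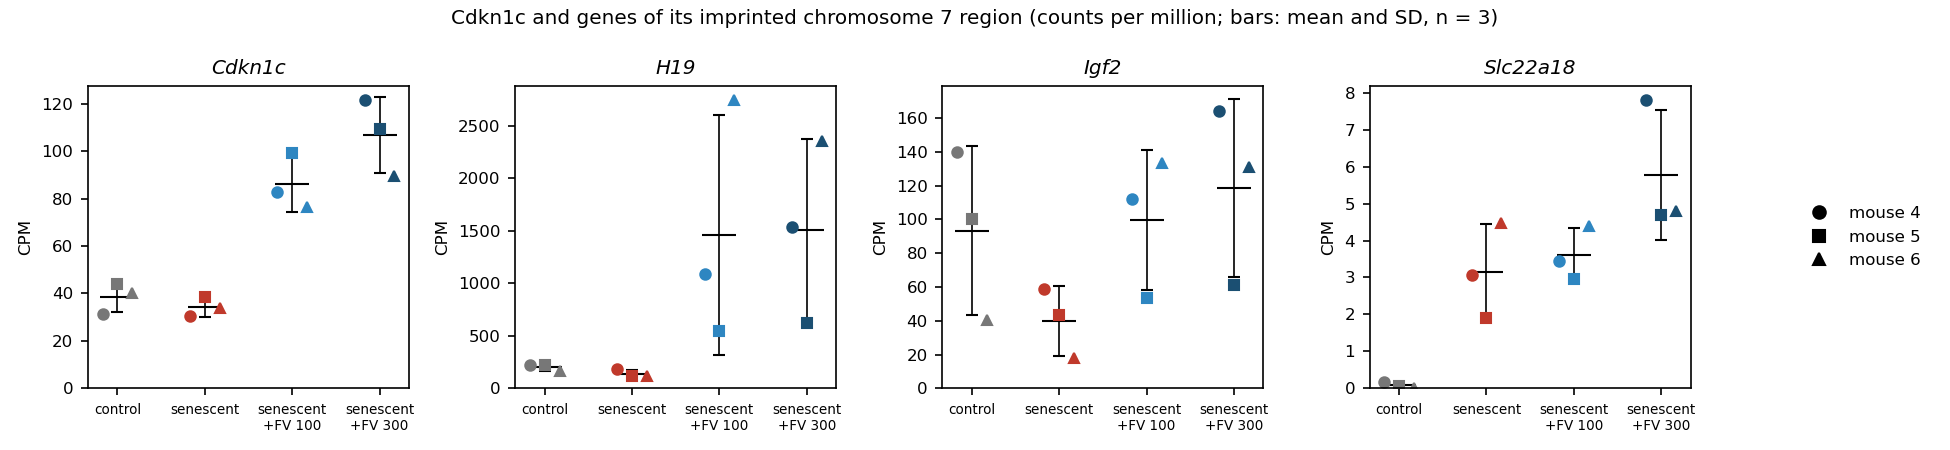
CPM (y axes starting at 0) of Cdkn1c, H19, Igf2 and Slc22a18 by group, with 1 point per mouse and the mean with SD (n = 3). Cdkn1c and H19 are higher in all 6 Fucoidan-FV samples than in the 6 others, whereas Slc22a18 is near 0 in control cells and between 1.90 and 7.79 CPM in all senescent groups.

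The nearest tested coding genes of the other members did not move as one with them. Beside Cdkn2a, Mtap at 93.4 kb had a log2 fold change of −0.09 in senescence (adjusted p = 0.954). Beside Cdkn1a, which rose, Srsf3 at 47.6 kb fell by 1.19 (adjusted p = 0.000757) and Cpne5 at 54.8 kb rose (adjusted p = 0.0153). The neighbours of Cdkn1b (Gpr19 and Apold1), Cdkn2c (Rnf11 and Faf1) and Cdkn2d (Kri1 and Slc44a2) were not DEGs in senescence, nor was Elavl2, on the other side of Cdkn2b.

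The genes most alike in pattern were found by Pearson's r of log2(CPM + 0.5) over the 12 samples, which share their libraries and groups, among 12627 genes, as a description only. For Cdkn1c they were Col27a1, Ednrb and Prag1 (r = 0.963, 0.956 and 0.938). For Cdkn2c they were Idh2, Tk1 and Birc5 (0.986, 0.977 and 0.977), for Cdkn1a Aga, Serpine2 and Cd81 (0.988, 0.985 and 0.983), and for Cdkn2a H2ac19, Shisa4 and Tinagl1 (0.985, 0.980 and 0.980). Those of Cdkn2b, H2bc4, Gm43737 and Hs3st3b1 (0.980, 0.977 and 0.977), all had 1 listed transcript, as Cdkn2b itself has. Cdkn1b (Cmklr1, 0.916) and Cdkn2d (Dph1, 0.912) had no gene above 0.92.

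The letters of the promoters differed among the members. CG pairs in a window of 300 bases numbered 45 and 12 in the windows of Cdkn2a, which were not assigned to its first exons. They numbered 33 and 8 at the starts of Cdkn2c, 30 for Cdkn1b, 22 for Cdkn2d and 18 for Cdkn2b. Those at the upstream and second starts of Cdkn1a numbered 2 and 23, where the median of all windows was 7. The letters of an E2F site were searched on either strand as TTTGGCG and with the variant TTTCGCG as well as a further variant, TTTCCCG. They lay in 2 of the 9 windows, the Cdkn2a window with 45 CG pairs and the second of Cdkn2c, and in 5.58% of all windows. Such a match is a description of letters, and binding was not measured.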

How the data were processed

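Expected counts and TPM of each gene were deposited by the authors for each of 13 libraries. Per the labels and the submitters' processing notes, libraries were made with a stranded total RNA kit, checked with FastQC 0.12.1, trimmed with Trimmomatic, aligned to GRCm39 with STAR 2.7.11b and counted with RSEM 1.3.1, which divides reads among the transcripts of a gene, and the strand setting is not given in the sources used here. TPM was used as deposited, and the mean transcript length per gene from the same files gave the shares of the Cdkn2a transcripts.

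Expected counts were rounded, and the libraries 5(1) and 5(2) of control mouse 5 were summed (averaged for TPM and lengths). CPM was computed on the library totals multiplied by their TMM factors. All tests across genes came from edgeR 4.0.16 (R 4.3.3): genes passed filterByExpr with at least 10 counts and 15 in total as its settings, were scaled by TMM, and tested by quasi-likelihood in 1 fit over the 4 groups without a block, with Benjamini-Hochberg adjustment over 15034 genes. SE was the absolute log2 fold change divided by the square root of F. The code was tested on simulated data. DESeq2 1.42.0, other filters and scalings, the mouse number as a block, each library of control mouse 5 alone and each mouse left out were alternatives. So were fits to only the groups compared, to libraries 5(1) and 5(2) as separate samples, and to the authors' joint count matrix. Offsets for the share of bases in 1 transcript were added after seeing the data.

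The labels give the same mouse numbers in each group, so the fit with the mouse as a block was run beside the fit without it, which gives the printed values. Over 18 pairs of same-numbered samples the correlation of deviations from the group means had a median of −0.0016 (−0.184 to 0.377), and 8 were over 0.1. The study describes the samples of a group as independent biological replicates.

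The members and lists were chosen with earlier results of these data known. From each list the DEGs of a comparison were named, at most 4 by absolute log2 fold change. Cdk2, Cdk4, Cdk6, Ccnd1, Ccne1, Ccne2, Trp53, Bmi1, Foxo3 and Igf2, and values of a named gene in comparisons where it was not among these, fall outside that rule and were chosen after their values were seen. For each member the 3 genes with the highest correlation were named, among those with a mean of at least 1 CPM, and the nearest tested coding gene on each side.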

Additional observations from a re-analysis of the deposited data

How the results depend on the processing

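The calls of members other than Cdkn2b held in all 18 alternatives each, 252 of 252 in all, and the count of members called was 4 to 5 in senescence and against control with either dose, 1 with FV100 or FV300 against untreated senescent cells and 0 between doses. Among the 18 was a fit to the authors' joint count matrix. It holds the same counts, so its agreement was fixed in advance. Cdkn2b with FV100 against control was lost in 8 of 18 alternatives, and in other comparisons it gained a call 9 times. With the mouse number as a replicate block it was 2.06 (adjusted p = 0.0665, edgeR), and the block changed no other call of a member. The DEGs among all genes numbered 1266 in senescence (699 to 1826), 405 with FV100 (136 to 835) and 246 with FV300 (46 to 641) against untreated senescent cells. With FV100 against untreated senescent cells 165 of them rose and 240 fell, and with RLE factors 174 rose and 147 fell.

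Of 486 values that were no calls, 61 changed sign, and the cause was not tested. For FV100 against untreated senescent cells Cdkn2c was 0.067 with RLE factors, 0.065 with DESeq2, 0.062 with either filter, 0.069 with only these groups, 0.081 with the block, 0.092 with the added offsets and 0.20 with offsets and block. Cdkn2d was 0.041 with RLE factors, 0.040 with DESeq2, 0.032 with no filter, 0.049 with the stricter filter and 0.040 with only these groups. Cdkn2b was −0.067 with the block, −0.36 with offsets and −0.41 with both. Between doses Cdkn1b was −0.042 with RLE factors, −0.040 with DESeq2, −0.029 with no filter, −0.043 with the stricter filter, −0.031 with only these groups, −0.070 with offsets and −0.10 with both. Cdkn2a was −0.0042 with the stricter filter, −0.053 with offsets and −0.055 with both. Cdkn2d was −0.065 with RLE factors, −0.063 with DESeq2, −0.052 with no filter, −0.077 with the stricter filter, −0.072 with only these groups, −0.0013 with the block, −0.11 with offsets and −0.13 with both. Leaving out 1 mouse at a time gave for FV100 against untreated senescent cells −0.29 to 0.037 for Cdkn1a, −0.59 to 0.023 for Cdkn2a, −0.18 to 0.88 for Cdkn2b, −0.25 to 0.60 for Cdkn2c and −0.31 to 0.15 for Cdkn2d. For FV300 it gave −0.015 to 0.15 for Cdkn1a, −1.07 to 0.066 for Cdkn2b, −0.58 to 0.27 for Cdkn2c and −0.24 to 0.22 for Cdkn2d. Between doses it gave −0.25 to 0.24 for Cdkn1b, −0.039 to 0.20 for Cdkn2a and −0.19 to 0.27 for Cdkn2d. Cdkn2c had the lowest counts of the members, 24 to 118 in untreated senescent cells.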
